A study of Mus musculus with 24 samples.

Results

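Polycomb repressive complex 1 (PRC1) was followed through 9 of its subunit genes in differentiating male C57/Bl6 mouse embryonic stem cells (mESCs): *Ring1*, *Rnf2*, *Bmi1*, *Pcgf2*, *Pcgf6*, *Cbx2*, *Cbx6*, *Cbx7* and *Cbx8*. The 9 genes were chosen by name, each matched 1 of the 25965 entries of the expression table, and all 9 were among the 13296 genes tested. The cells were expanded in 2i medium, weaned into DME HiHi medium to differentiate, transduced with a retroviral short hairpin RNA (shRNA) on day 2, placed in puromycin on day 3, and sequenced on days 4, 5, 6 and 7. Every group therefore carries a retroviral hairpin and puromycin resistance, and the groups differ in what the hairpin targets: *Smarcc1* (hairpins Smarcc1.6 and Smarcc1.7, 8 libraries), *Smarca4* (hairpins Smarca4.4 and Smarca4.6, 8 libraries), or no mouse gene (nonsilencing control, Nons, 4 libraries). *Smarcc1* and *Smarca4* encode a core subunit and an ATPase of the BAF chromatin remodelling complexes. Nons had 1 library a day here, a single series, so each comparison with Nons rests on that series. No label names separate cultures. The *p*-values measure the spread between the 2 hairpins of a target on the same day, which may in part be technical. That spread was applied to Nons as well.

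PRC1 places a single ubiquitin on histone H2A and keeps developmental genes repressed. RING1 (from *Ring1*) and RING1B (from *Rnf2*) are the alternative catalytic subunits, and each pairs with 1 of the PCGF proteins, which decides the form of the complex. Forms with BMI1 or PCGF2 take up a CBX protein that reads methylated lysine 27 of histone H3, the mark set by PRC2, whereas the form with PCGF6 has no CBX of this family and is known in mESCs for repressing germline genes. CBX7 is the CBX protein of pluripotent cells, and CBX2 and CBX8 are associated with differentiated ones.

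The hairpins were first set beside the transcripts of the 9 genes, because a short guide can also bind RNAs through its seed. The guide strands were taken from the study's oligonucleotide list and are printed 5′ to 3′, with the seed (bases 2 to 8) in capitals.
Smarcc1.6: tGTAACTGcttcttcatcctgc
Smarcc1.7: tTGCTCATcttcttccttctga
Smarca4.4: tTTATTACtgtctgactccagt
Smarca4.6: tTGCATAAtagtgttcatcagt
Bases 1 to 21 of each guide matched its target in the GENCODE M21 transcripts (build GRCm38, equal to mm10): chr9:110177473-110177493 in coding exon 13 of *Smarcc1* for Smarcc1.6, chr9:110173912-110173932 in coding exon 11 for Smarcc1.7, chr9:21670505-21670525 in coding exon 22 of *Smarca4* for Smarca4.6, and chr9:21703328-21703348 in exon 34 of *Smarca4*, outside the coding part, for Smarca4.4, all on the plus strand. None of the guides had such a match in a transcript of the 9 genes (0 members each). The 7 bases that pair with the seed occurred in the longest transcript of *Pcgf2* and *Cbx8* for Smarca4.4, of *Rnf2*, *Bmi1* and *Cbx6* for Smarca4.6, of *Pcgf6* and *Cbx6* for Smarcc1.6, and of no member for Smarcc1.7.

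The targeted genes fell in their libraries. *Smarcc1* stood at 23.7 to 60.1% of the same-day Nons level in the 8 *Smarcc1* knockdown libraries (log2 change -1.33, SE 0.21, adjusted *p* = 0.00115), and *Smarca4* at 21.6 to 55.3% in the 8 *Smarca4* knockdown libraries (log2 change -1.79, SE 0.29, adjusted *p* = 0.00277). A genotype label describes the latter as a Smarcc knockdown, and the sample titles, which name Smarca4, were followed. Tests were limma on log2 rpm (reads assigned to the gene, scaled for library size), with Benjamini-Hochberg adjustment over the 13296 genes, a threshold of 0.05 and changes averaged over the 4 days. Libraries held 6829596 to 27472885 reads, the smallest being Smarca4.4 on day 5. All 8 markers of mESCs and early epiblast were detected and fell from day 4 to day 7, where 28.8% of all tested genes fell. The markers also differed between groups: 5 of 8 were higher in *Smarcc1* knockdown than in Nons and 4 of 8 in *Smarca4* knockdown. Of all tested genes 7.54% and 4.75% were called higher there. Summed levels of the markers were 954 to 3074 rpm in Nons, 1351 to 3448 rpm in *Smarcc1* knockdown and 1008 to 3125 rpm in *Smarca4* knockdown. The part of this difference in the results that follow was not tested.

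The 9 genes covered a wide range of levels. Per kilobase of exon, the median over the 20 libraries was highest for *Rnf2* (29.7 rpm per kb, range 21.3 to 38.6) and *Cbx7* (28.5 rpm per kb, range 19.2 to 34.6), the catalytic subunit and the CBX protein typical of pluripotent cells, and these ranges overlapped. *Pcgf6* followed with 15.7 rpm per kb (range 10.95 to 27.7). *Pcgf2* (7.32 rpm per kb), *Cbx2* (6.16 rpm per kb), *Bmi1* (4.44 rpm per kb) and *Cbx6* (4.25 rpm per kb) formed a middle group whose ranges, between 1.94 and 11.8 rpm per kb, overlapped one another. *Ring1* lay at 2.51 rpm per kb (range 1.74 to 3.12), below every library's value for *Rnf2*. *Cbx8* was lowest, with 0.479 rpm per kb and at most 1.37 in any library. Its 15 to 85 reads a library make it the least precise of the 9, against 816 to 3733 reads for *Rnf2*. Exon lengths are unions over all annotated isoforms, so the order holds only as far as isoform use is like that union. For *Rnf2* and *Pcgf6* the start or end in the expression data differs from that in GENCODE M21, the source of the lengths. Their values per kilobase are less certain for that reason. *Cbx6* shares exons with *Npcd* on the same strand, and exons of *Cbx7* overlap those of *Apobec3* on the other strand, so reads of each pair cannot be fully told apart. *Bmi1*, *Pcgf6* and *Cbx8* overlapped no other annotated gene.

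**Figure D1:**
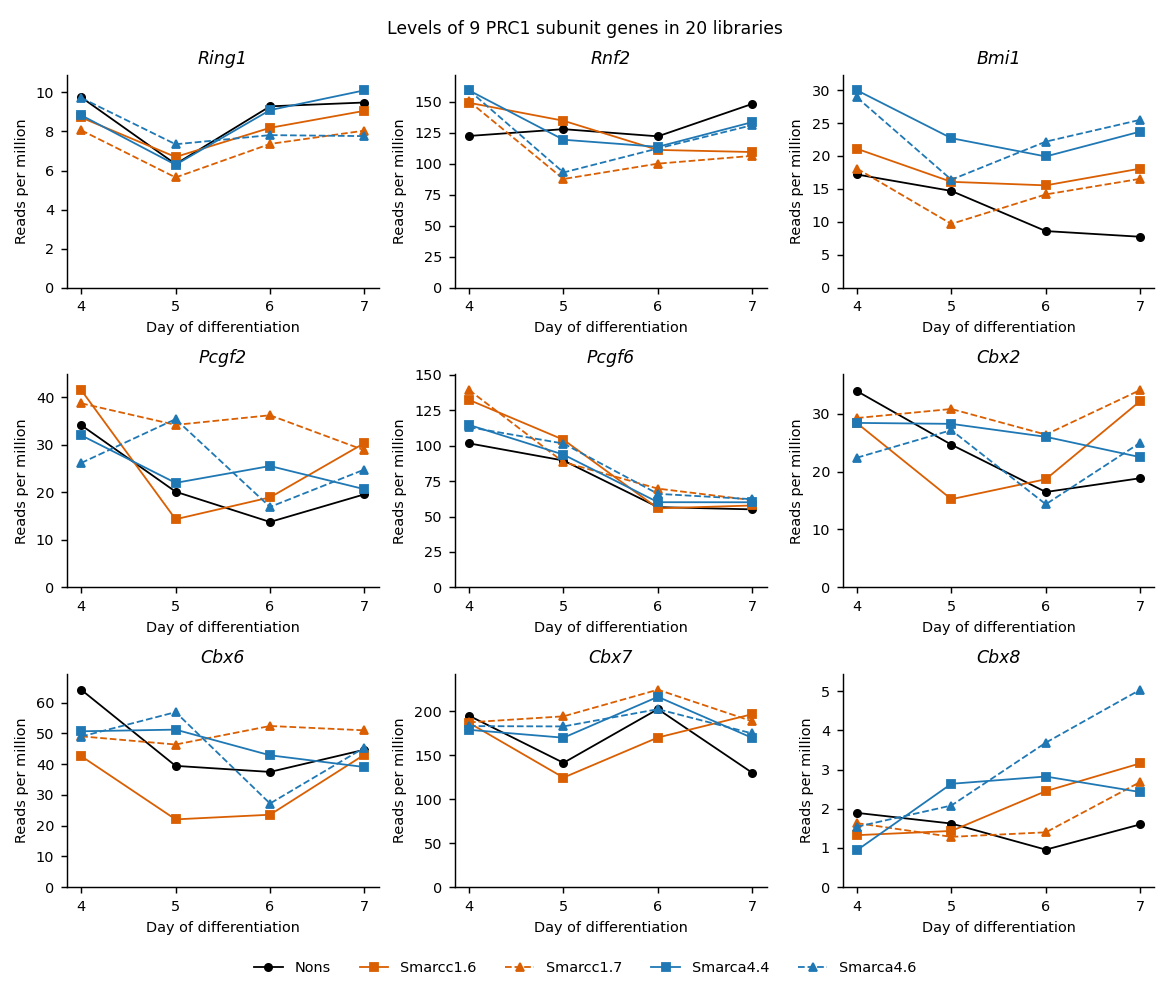
Level of each of the 9 genes in rpm (linear axis from 0) against the day of differentiation. Each point is 1 library and each line 1 series: Nons in black, the *Smarcc1* hairpins in orange and the *Smarca4* hairpins in blue. Both blue *Bmi1* lines lie above the black line on all 4 days, and the 5 *Pcgf6* lines fall together.

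*Bmi1* was the only 1 of the 9 genes that passed the test in a comparison of a knockdown with Nons. BMI1 (PCGF4) is a PCGF subunit of the CBX-containing form, known for repressing the *Cdkn2a* locus and for the self-renewal of adult stem cells. The gene lies at chr2:18677018-18686629 (mm10, plus strand). In Nons its level was 17.2 rpm on day 4, 14.7 on day 5, 8.59 on day 6 and 7.73 on day 7. With Smarca4.4 it was 29.96, 22.7, 19.9 and 23.7 rpm on the same days, and with Smarca4.6 28.9, 16.4, 22.2 and 25.5 rpm. All 8 *Smarca4* knockdown libraries were above the Nons library of their day. The narrowest excess was that of Smarca4.6 on day 5 (112% of Nons) and the widest that of Smarca4.6 on day 7 (330%). Averaged over days, *Bmi1* was 2.05-fold higher in *Smarca4* knockdown than in Nons (log2 change 1.03, SE 0.15, 95% interval 0.70 to 1.36, adjusted *p* = 0.0015). This limma fit took the days of a hairpin as independent, and with each series entered as a block the adjusted *p* was 0.0164. It was 1 of 9 members called, all 9 being read against a background of 6.71% of all tested genes called in this comparison and 4.75% called higher. Without day 7 the change was 0.82 and no longer passed (adjusted *p* = 0.0887), in a fit that called 133 genes in place of 892.

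With the *Smarcc1* hairpins, *Bmi1* was nearer to Nons. Smarcc1.6 gave 21.1, 16.1, 15.5 and 18.1 rpm on days 4 to 7, and Smarcc1.7 gave 18.1, 9.68, 14.2 and 16.5 rpm. Of these 8 libraries 7 were above the Nons library of their day, the exception being Smarcc1.7 on day 5. The mean log2 change was 0.47 (SE 0.15, 95% interval 0.15 to 0.80 before adjustment) and did not pass the threshold (adjusted *p* = 0.0669). The call went the other way without day 5 (0.71, adjusted *p* = 0.00258) and without the smallest library (0.47, adjusted *p* = 0.0484). None of the 9 members was called in this comparison by limma or limma-voom (0 of 9, and 1 of 9 at an unadjusted *p* under 0.05), where 10.6% of all tested genes were.

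Set directly against each other, the knockdowns differed in *Bmi1*: both *Smarca4* hairpins were above both *Smarcc1* hairpins on each of the 4 days. The log2 change of *Smarcc1* minus *Smarca4* knockdown was -0.56 (SE 0.12, adjusted *p* = 0.0235), and *Bmi1* was the 1 member called where 4.09% of all tested genes were. This comparison does not involve the Nons libraries. The size was similar without any 1 hairpin series (-0.71 to -0.41), but the call was lost without Smarcc1.6 (adjusted *p* = 0.0787), Smarcc1.7 (0.174), Smarca4.4 (0.177) or Smarca4.6 (0.202) in turn, and with the hairpin series as a replicate block (0.152). The other 8 members lay between -0.39 for *Cbx8* and 0.21 for *Pcgf2*, none past the threshold.

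*Pcgf2* (MEL18), the closest relative of *Bmi1*, was not called in any of these comparisons. Its median level was 19.8 rpm in Nons (range 13.7 to 34.1), 32.2 rpm with *Smarcc1* hairpins (range 14.3 to 41.5) and 25.1 rpm with *Smarca4* hairpins (range 16.9 to 35.4). The changes were 0.47 (SE 0.24, adjusted *p* = 0.28) for *Smarcc1* and 0.26 (SE 0.24, adjusted *p* = 0.619) for *Smarca4* knockdown. Within libraries, the log2 level of *Bmi1* minus that of *Pcgf2* had a median of -0.83 in Nons (range -1.34 to -0.45), of -0.89 with *Smarcc1* hairpins (range -1.82 to 0.17) and of 0.04 with *Smarca4* hairpins (range -1.11 to 0.39). The ranges overlapped in all 3 groups.

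Neither gene of the catalytic pair was called. *Rnf2*, at 122 to 148 rpm in Nons, was at 87.8 to 151 rpm in *Smarcc1* and 93.0 to 159 rpm in *Smarca4* knockdown, with changes of -0.15 (SE 0.12, 95% interval -0.42 to 0.11) and -0.04 (SE 0.12, 95% interval -0.31 to 0.22). *Ring1*, at 6.33 to 9.76 rpm in Nons, was at 5.64 to 9.06 and 6.30 to 10.1 rpm, with changes of -0.17 (SE 0.14) and -0.05 (SE 0.14). The 95% intervals of *Ring1* were -0.46 to 0.13 and -0.35 to 0.24. For both genes, changes as large as the ends of these intervals remain possible, and so does none. The log2 level of *Ring1* minus *Rnf2* was the steadiest of the 4 pairs examined, at -4.34 to -3.60 over all 20 libraries. *Cbx2* minus *Cbx7* had medians of -2.65, -2.70 and -2.86 in Nons, *Smarcc1* and *Smarca4* knockdown, and *Cbx8* minus *Cbx7* of -6.57, -6.64 and -6.20, with overlapping ranges.

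The CBX genes did not pass the test in any of the 3 knockdown comparisons. *Cbx7* was at 130 to 203 rpm in Nons (129.97 rpm on day 7, its lowest), 125 to 225 rpm in *Smarcc1* and 170 to 217 rpm in *Smarca4* knockdown (changes 0.15 and 0.17, SE 0.13 each). *Cbx2* changed by 0.21 and 0.08 (SE 0.20 each) and *Cbx6* by -0.20 and -0.03 (SE 0.23 each), with adjusted *p* of 0.598 and 0.888 for *Cbx2* and 0.652 and 0.961 for *Cbx6*. *Cbx8* had the next largest change after *Bmi1* in *Smarca4* knockdown, 0.69 (SE 0.25), above Nons in 6 of 8 libraries, but with an adjusted *p* of 0.138. *Pcgf6* was above the same-day Nons in all 8 *Smarca4* knockdown libraries, at 105 to 117% of it, a change of 0.15 (SE 0.10, adjusted *p* = 0.478). The median change of all tested genes was 0.06 in each comparison with Nons, so small positive changes of this order were common.

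**Figure D2:**
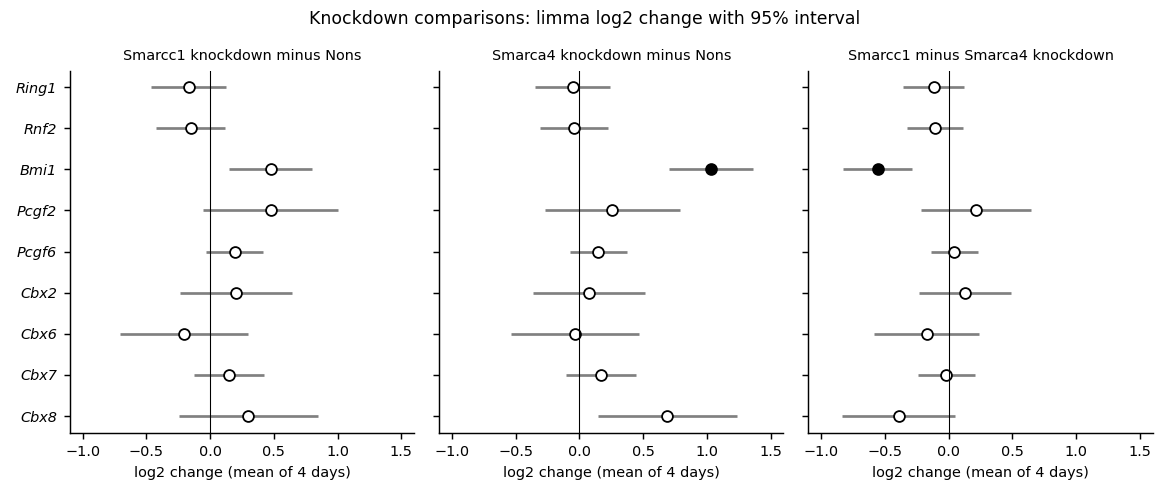
The log2 change of each gene (points) with its 95% interval (lines) for *Smarcc1* knockdown minus Nons, *Smarca4* knockdown minus Nons and *Smarcc1* minus *Smarca4* knockdown, as means over 4 days from limma. Filled points passed the threshold of 0.05 after adjustment: *Bmi1* at 1.03 in the second panel and at -0.56 in the third, with the other points open.

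Over differentiation, *Pcgf6* showed the largest change of the 9. It encodes the PCGF subunit of the form that also holds MAX, MGA and L3MBTL2, and lies at chr19:47033619-47050845 (mm10, minus strand). In Nons it fell from 101.7 rpm on day 4 to 89.5, 56.6 and 55.0 rpm on days 5, 6 and 7. With Smarcc1.6 it fell from 132 to 57.8 rpm between days 4 and 7, with Smarcc1.7 from 139 to 61.5 rpm, with Smarca4.4 from 115 to 60.1 rpm and with Smarca4.6 from 113 to 62.2 rpm. On day 4 the 4 hairpin libraries were all above Nons, and by day 7 all 5 libraries lay within 55.0 to 62.2 rpm. The log2 change from day 4 to day 7 was -0.99 (SE 0.11, 0.504-fold, adjusted *p* = 5.97e-06), and it lay between -1.20 and -0.86 in the 5 series. In this comparison 64.5% of all tested genes were called, 28.8% lower and 35.7% higher, so a call alone sets none of the members apart: 3 of the 9 were called, *Pcgf6* and *Bmi1* lower and *Cbx8* higher. The call for *Pcgf6* held in all 17 alternative settings tried.

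The fall of *Bmi1* over days (log2 change -0.53, SE 0.16, adjusted *p* = 0.0127) came mostly from 1 series. It was -1.15 in Nons, and -0.22, -0.13, -0.34 and -0.18 with Smarcc1.6, Smarcc1.7, Smarca4.4 and Smarca4.6. Without the Nons series the change was -0.22 and did not pass (adjusted *p* = 0.291). Without Smarca4.4 it did not pass either (-0.50, adjusted *p* = 0.066). The difference between courses was tested directly and was not called: the change from day 4 to day 7 was 0.98 larger with *Smarcc1* hairpins than in Nons (SE 0.43, unadjusted *p* = 0.0403, adjusted *p* = 0.583) and 0.89 larger with *Smarca4* hairpins (SE 0.43, unadjusted *p* = 0.0576, adjusted *p* = 0.9997). In these tests of different courses 0.459% and 0.0827% of all genes were called by limma, and 0 of 9 members in each by limma and by limma-voom (1 of 9 in each at an unadjusted *p* under 0.05).

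*Cbx8*, which encodes a CBX protein known to be induced on differentiation, was the member called higher on day 7. The gene lies at chr11:119036305-119040969 (mm10, minus strand). In Nons it was at 1.89, 1.62, 0.954 and 1.599 rpm on days 4 to 7. With Smarcc1.6 it was at 1.32, 1.43, 2.45 and 3.16 rpm, and with Smarcc1.7 at 1.63, 1.28, 1.40 and 2.68 rpm. With Smarca4.4 it was at 0.939, 2.64, 2.82 and 2.42 rpm, and with Smarca4.6 at 1.54, 2.08, 3.68 and 5.04 rpm. Day 7 was above day 4 in all 4 hairpin series and below it in Nons. The mean change was 0.76 (SE 0.27, adjusted *p* = 0.0268). It did not pass after centring each library on its median gene (0.58, adjusted *p* = 0.0959) or without Smarcc1.6 (0.67, adjusted *p* = 0.11). With *Smarca4* hairpins the change over days exceeded that of Nons by 1.78 (SE 0.71, unadjusted *p* = 0.0266, adjusted *p* = 0.9997), and with *Smarcc1* hairpins by 1.23 (SE 0.71, unadjusted *p* = 0.108, adjusted *p* = 0.833). Neither difference was called.

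The other 6 members did not pass between days 4 and 7. *Pcgf2* was lower on day 7 in all 5 series (-0.80 to -0.08, mean -0.53, SE 0.27, adjusted *p* = 0.0974). *Rnf2* was lower in the 4 hairpin series and higher in Nons (mean -0.15, SE 0.13). *Cbx2*, *Cbx6* and *Cbx7* were lower in Nons, by -0.85, -0.52 and -0.59, and lay between -0.38 and 0.22 in the hairpin series. *Ring1* changed least, with a mean of -0.03 (SE 0.15).

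**Figure D3:**
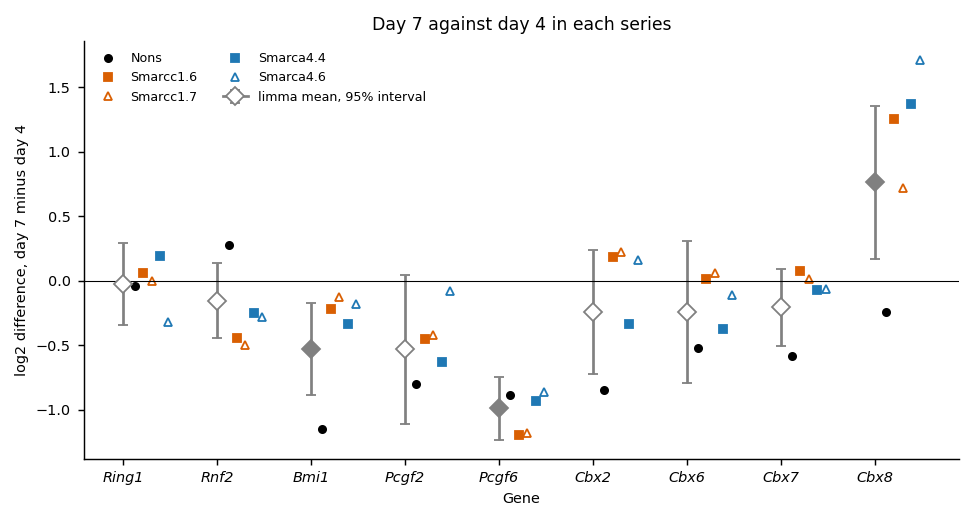
The log2 difference between day 7 and day 4 for each gene. Grey diamonds with bars are the limma mean and its 95% interval, filled where the adjusted *p* was under 0.05, and the symbols to their right are the 5 series. *Pcgf6* is below -0.86 in each series, and for *Bmi1* and *Cbx8* the black Nons point stands apart from the 4 hairpin points.

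The levels of *Pcgf2*, *Cbx2* and *Cbx6*, parts of the CBX-containing form, were compared from library to library. Over the 20 libraries Pearson's *r* of the log2 levels was 0.84 for *Pcgf2* and *Cbx2*, 0.79 for *Cbx2* and *Cbx6*, and 0.72 for *Pcgf2* and *Cbx6*. As deviations from the mean of their day, the same pairs had *r* of 0.83, 0.73 and 0.64. *Cbx7* stood as close to them by this measure, at 0.73 with *Pcgf2*, 0.76 with *Cbx2* and 0.68 with *Cbx6*. *Rnf2* ran the other way, at -0.77 with *Pcgf2*, -0.73 with *Cbx2* and -0.80 with *Cbx7*. Without subtracting the mean of the day, these *r* were 0.47, 0.37 and 0.38 for *Cbx7* and -0.11, -0.18 and -0.41 for *Rnf2*. Other pairs of the CBX-containing form were less close over the 20 libraries. They had *r* of 0.23 for *Bmi1* and *Pcgf2*, 0.04 for *Cbx2* and *Cbx8*, and -0.10 for *Pcgf2* and *Cbx8*. These are descriptions without a test, since the libraries share series and days. On day 5, Smarcc1.6 had 14.3 rpm of *Pcgf2*, 15.2 rpm of *Cbx2* and 22.02 rpm of *Cbx6*, while Smarcc1.7 had 34.2, 30.8 and 46.4 rpm. The 2 libraries thus differed by 1.02 to 1.25 on the log2 scale in these 3 genes.

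A property of the libraries moved with these genes. As a measure of composition, the mean log2 level of the tenth of tested genes with the lowest GC content in their longest transcript (41.5% GC or less) was subtracted from that of the tenth with the highest (58.1% or more), leaving out the members. This GC contrast was -1.71 to -1.47 on day 4, -2.26 to -0.63 on day 5, -1.56 to -0.88 on day 6 and -1.06 to -0.72 on day 7. The pair of Smarcc1 libraries on day 5 stood at -2.26 and -1.18. After subtracting the mean of each day, *r* with the GC contrast over the 20 libraries was 0.84 for *Pcgf2*, 0.69 for *Cbx2* and *Cbx6*, 0.73 for *Cbx7* and -0.74 for *Rnf2*, but 0.02 for *Bmi1*, 0.06 for *Ring1*, 0.11 for *Pcgf6* and 0.15 for *Cbx8*. The transcripts of *Cbx2* (57.6% GC), *Cbx7* (56.4%), *Cbx6* (54.9%) and *Pcgf2* (54.0%) are GC-rich and that of *Rnf2* (39.5%) is GC-poor, but *Ring1* (56.9%), *Cbx8* (54.9%) and *Bmi1* (40.2%) did not follow the contrast. Whether the contrast arose in the cells or in the preparation of the libraries was not tested.

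With the GC contrast as a covariate, a setting added after seeing the data, *Bmi1* kept its calls between groups. The change in *Smarca4* knockdown was 1.19 (adjusted *p* = 0.000188), that in *Smarcc1* knockdown passed at 0.59 (adjusted *p* = 0.00243), and the difference between the knockdowns was -0.60 (adjusted *p* = 0.00155). The contrast of the single Nons series lay below the mean of its day on days 5, 6 and 7 (-0.40, -0.29 and -0.15). On day 4 it lay above (0.03). The covariate is thus partly tied to Nons, and nothing is concluded from the larger changes against Nons in this fit. In the comparison of days *Pcgf6* (-0.96) and *Cbx8* (1.09) kept their calls, *Bmi1* lost its call (-0.18, adjusted *p* = 0.268), and *Pcgf2* (-1.22), *Cbx2* (-0.69), *Cbx6* (-0.77) and *Cbx7* (-0.46) passed as lower on day 7. The last 4 are genes that followed the contrast within days. The contrast was -1.71 to -1.47 on day 4 and -1.06 to -0.72 on day 7, without overlap. This fit therefore cannot tell day and contrast apart, and nothing is concluded from it about days.

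**Figure D4:**
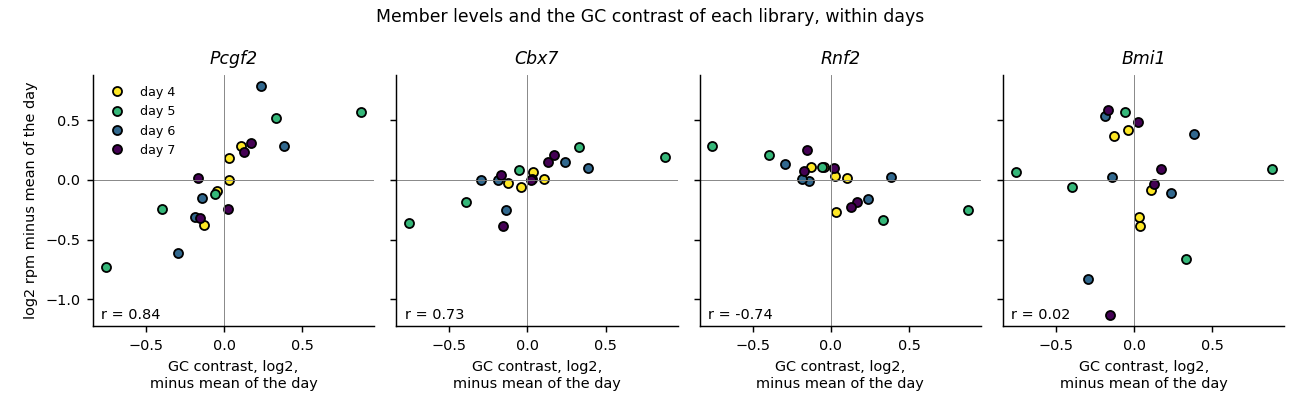
Deviation of the log2 level of *Pcgf2*, *Cbx7*, *Rnf2* and *Bmi1* from the mean of its day against the deviation of the library's GC contrast, 1 point a library (n = 20), coloured by day. Points of *Pcgf2* and *Cbx7* rise with the contrast, those of *Rnf2* fall, and those of *Bmi1* show no slope (*r* = 0.84, 0.73, -0.74 and 0.02).

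By the shape of their profile over the 20 libraries, the genes most like *Pcgf6* were *Gm12940* (Pearson's *r* = 0.972), *Socs2*, an inhibitor of cytokine signalling (0.969), and *Dkc1*, the pseudouridine synthase of telomerase and small nucleolar RNPs (0.967). Those most like *Cbx8* were *Txnip*, a binding partner of thioredoxin (0.810), *Gm15441* (0.797) and *Naa11*, a catalytic subunit of an N-terminal acetyltransferase (0.792).

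Promoters of 8 of the 9 genes were found in RefSeq (build GRCm38.p6, 250 bases before to 50 after the start), *Cbx2* having no entry. The E-box CACGTG, which reads the same on both strands and is bound by MYC-MAX, MGA-MAX and related dimers, was present in 4 of these 8, against 7.15% of all 32851 promoters and 10.1% of the 11858 promoters of tested genes. These 4 were the promoters of *Bmi1*, *Pcgf2*, *Cbx6* and *Cbx8*. The E-box was absent from the promoters of *Pcgf6*, *Cbx7*, *Ring1* and *Rnf2*. The 4 promoters with it are printed as 30 bases on the strand of the gene, with the E-box in capitals.
Bmi1, chr2:18676791-18676820, plus strand: gaatgaggggagCACGTGacccggcggggg
Pcgf2, chr11:97699768-97699797, minus strand: aaggaatgaggtCACGTGggtgagtagtgg
Cbx6, chr15:79834342-79834371, minus strand: ggcccggagcatCACGTGacggcccgcagc
Cbx8, chr11:119040994-119041023, minus strand: cgtcgttagcaaCACGTGgggcgggaggaa
The E-box began 215 bases before the start of *Bmi1*, 137 before that of *Pcgf2*, 26 before that of *Cbx6* and 98 before that of *Cbx8*. Of 5 other motifs searched on both strands, GGGCGG was in 8 of 8 member promoters (35.7% of all) and CCAAT in 2 of 8 (37.4% of all), and TTTCGCGC, TTTGGCGC and CGCATGCG were in 0 of 8 (0.323%, 0.514% and 1.87% of all). A match is a description of the letters and no evidence of binding.

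The rest of the PRC1 machinery was read from a list of 29 further subunits and partners, which were all tested. In *Smarcc1* knockdown 3 were higher and 1 lower than in Nons, and in *Smarca4* knockdown 1 was higher and none lower (0), against 10.6% and 6.71% of all tested genes called in either direction. *Phc2*, a Polyhomeotic subunit, rose in both (0.65 and 0.78, adjusted *p* = 0.0439 and 0.0252). *L3mbtl2* (0.49) and *Max* (0.42), partners of PCGF6, rose in *Smarcc1* knockdown, and *Pcgf5*, the PCGF of another CBX-free form, fell (-0.55, adjusted *p* = 0.0201) and was also lower there than in *Smarca4* knockdown (-0.61, adjusted *p* = 0.00941). With each series entered as a block with an estimated correlation, no gene of the list was called in either knockdown or between them (0 in each): *Phc2* then had adjusted *p* = 0.231 and 0.178, and *Pcgf5* 0.122 against Nons and 0.0847 between the knockdowns. The list's median changes were 0.16 and 0.08, against 0.06 for all genes in both comparisons. Without day 7 no gene of the list was called in either (0 and 0), and with limma-voom 0 were higher and 2 were lower in *Smarcc1* knockdown.

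From day 4 to day 7, 5 genes of the list were higher and 16 lower (median -0.36, all genes 0.08), where 35.7% of all tested genes were higher and 28.8% lower. *Pcgf5* rose by 3.68 and *Yaf2*, an alternative to RYBP in CBX-free forms, by 1.43, while *L3mbtl2* (-2.29), *Max* (-1.37) and *Tfdp1* (-1.41), partners of the PCGF6 form, fell. All of these had adjusted *p* of 4.64e-06 or less. *E2f6*, another partner of that form, named here after its values were seen, rose (0.59, adjusted *p* = 0.00226).

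The H2A deubiquitinase removes the PRC1 mark, and PRC2 sets the mark read by CBX proteins. Of 9 genes of the H2A deubiquitinase none was called in either comparison with Nons by limma or limma-voom (0 of 9, with 1 and 0 at an unadjusted *p* under 0.05). Of all tested genes 10.6% and 6.71% were called there by limma. Over days 2 deubiquitinase genes rose and 4 fell, among them *Asxl2* (-1.62) and the catalytic *Bap1* (0.44), where 35.7% of all tested genes rose and 28.8% fell. Of 11 PRC2 genes 3 were higher in *Smarcc1* knockdown, where 7.54% of all tested genes were, the core subunit *Suz12* (0.60, adjusted *p* = 0.019) and the accessory *Mtf2* (0.55) and *Aebp2* (0.48), and 0 in *Smarca4* knockdown by either tool (3 at an unadjusted *p* under 0.05). Without day 7, and without day 4 or 6, the *Smarcc1* count was 0, and with limma-voom 1. With the series as a block it was also 0, *Suz12* then having adjusted *p* = 0.119. Over days 3 PRC2 genes rose, *Ezh1* (1.07) and *Phf1* (1.10) among them, and 8 fell, led by *Jarid2* (-2.47), against 35.7% and 28.8% of all tested genes.

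Genes that PRC1 is known to repress were read as 2 lists. Both lists were chosen with earlier results of these data known, so their counts are descriptions and no independent test. The germline genes were not silent here, and 11 of 12 averaged at least 10 rpm. Their summed level was 251 to 738 rpm in Nons, 453 to 1183 rpm in *Smarcc1* knockdown and 480 to 1110 rpm in *Smarca4* knockdown. Of 12 germline genes known as targets of the PCGF6 form, 9 were higher in *Smarcc1* knockdown and 8 in *Smarca4* knockdown, and none lower (0 in each), against 7.54% and 4.75% of all tested genes called higher. The medians were 0.74 and 0.72, against 0.06 for all genes in both comparisons. *Stag3* (1.06 and 1.18, adjusted *p* = 0.000954 and 0.000848), *Smc1b* (1.09 and 0.75) and *Hormad1* (1.33 and 0.84), all of the meiotic chromosome axis or cohesin, rose in both, as did *Stk31* (0.96 and 0.77) and *Mael* (0.74 and 1.17), a factor of transposon silencing in germ cells. These counts depended on the libraries: without day 7 no germline gene was called in either comparison (0 and 0, where 400 and 133 genes of all were called), without Smarca4.6 the count was 1 in *Smarca4* knockdown, and with limma-voom on recovered reads it was 6 and 5. With the series as a block it was 6 and 3, *Stag3* being called in both (adjusted *p* = 0.00766 and 0.00848). Between the knockdowns 0 of 12 were called by limma and by limma-voom (5 at an unadjusted *p* under 0.05), where 4.09% of all genes were. *Pcgf6* RNA changed by 0.19 and 0.15, neither called. Whether the PCGF6 form has a part in the germline result was not tested. Genes of the germline list also changed over days: *Dazl* (-3.67) and *Hormad1* (-3.54) fell steeply from day 4 to day 7 as the mESC markers did, whereas *Sycp3* rose (2.40). In all 3 of the 12 rose and 4 fell, where 35.7% of all tested genes rose and 28.8% fell. mESC markers were also higher in both knockdowns (medians 0.62 and 0.46), and their part in the germline result was not tested.

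Of 19 lineage regulators known to be held by Polycomb in mESCs, 9 passed the filter on low values. Without that filter 4 of 19 were higher in *Smarcc1* knockdown and 2 of 19 in *Smarca4* knockdown. With the filter, *Gata4* (1.14 and 0.89, adjusted *p* = 0.00652 and 0.0383) was higher in both knockdowns and *Hand1* (1.35) in *Smarca4* knockdown. The other tested genes of this list were not called in these comparisons, and without day 7 none was (0 and 0). With the series as a block none was called either (0 and 0), *Gata4* having adjusted *p* = 0.0522 and 0.205 and *Hand1* 0.174. Among markers of other cell types, 1 of 5 tested fibroblast genes was higher and 1 lower in *Smarcc1* knockdown, and 1 was lower in *Smarca4* knockdown. Endoderm genes were higher in 3 of 3 tested and 1 of 3, neural genes in 1 of 5 in each, germ cell genes in 3 of 4 and 2 of 4, and mesoderm genes in 0 of 2 and 1 of 2. Of all tested genes 7.54% and 4.75% were called higher in these comparisons (10.6% and 6.71% in either direction). The 4 germ cell genes also belong to the germline list, and *Gata4* (endoderm) and *Hand1* (mesoderm) to the lineage list, so their calls appear in both. The filter on low values used the mean over all 20 libraries, so genes high in the knockdowns pass it more easily. Without it, 5 of 8 endoderm genes were higher in *Smarcc1* knockdown and 0 of 8 in *Smarca4* knockdown. With the block the endoderm counts were 0 and 0. The part of these cell types in the members' results was not tested. Of the endoderm list, *Sox17*, *Foxa2* and *Afp* were under 1 rpm in every library, and the summed level of its 8 genes was 5.92 to 8.85 rpm in Nons, 7.16 to 37.3 rpm in *Smarcc1* and 4.88 to 14.5 rpm in *Smarca4* knockdown.

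**Figure D5:**
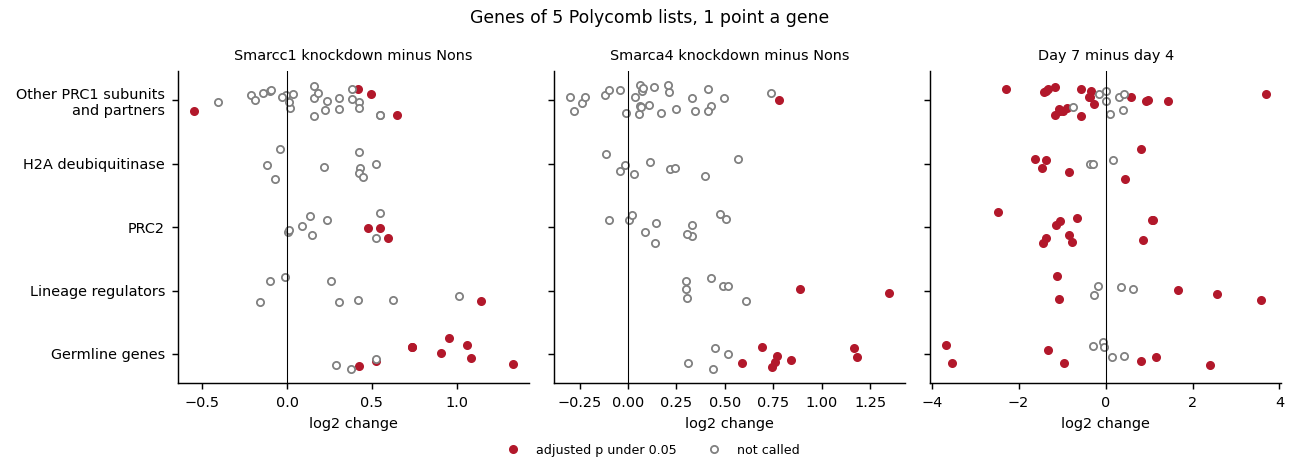
The log2 change of each tested gene of 5 lists (1 point a gene, placed at random within its row) in *Smarcc1* knockdown minus Nons, *Smarca4* knockdown minus Nons and day 7 minus day 4. Red points had an adjusted *p* under 0.05. The germline row is shifted to the right in the first 2 panels, with 9 and 8 red points of 12. The lists were chosen with earlier results of these data known.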

How the data were processed

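RNA-seq libraries of differentiating male mESCs were analysed from the log2 rpm values the authors deposited: 75 bp single-end reads were trimmed with trim_galore, aligned to mm10 with tophat or hisat2 and quantified per gene in SeqMonk. The annotation release and use of strand are not given in the sources used here. A second Nons replicate (4 libraries) is not analysed here. In each library the lowest value equals 0.9 of a read, so whole reads and totals (6829596 to 27472885 reads) were recovered (100% of values below 1000 reads within 0.05 of a whole number). Levels are printed as rpm, 2 to the power of the deposited value; 3 reads, taken as the detection limit, are 0.109 to 0.439 rpm, a limit of counting error only.

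Differences were tested with limma 3.58.1 (trend) in R 4.3.3 on 13296 genes whose log2 values averaged 0 or more, with a mean for each of 12 combinations of group and day, 8 residual degrees of freedom, Benjamini-Hochberg adjustment and a threshold of 0.05. Repeated symbols (66) were not members. The script was tested on simulated data. Every member is named, and from the other lists at most 6 called genes per comparison by size of change, plus, for the 2 members that changed most over days, the 3 genes of highest Pearson's *r*. Of the list genes, 2 are not reported here. Members and lists were chosen with earlier results of these data known. Gene lengths, GC content and overlaps came from GENCODE M21 (GRCm38), with GC content for 90.0% of tested genes. Alternatives were other filters, scalings and models, and leaving out series, days or the smallest library.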

Additional observations from a re-analysis of the deposited data

Results flagged for a closer look

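*Bmi1* differed between the knockdowns themselves: its log2 change of *Smarcc1* minus *Smarca4* knockdown was -0.56 (limma, adjusted *p* = 0.0235), which is a test of the difference between the 2 effects because both are measured against the same Nons libraries. Both *Smarca4* hairpins were above both *Smarcc1* hairpins on each of the 4 days. The call was lost in 10 of 21 settings, among them leaving out any 1 of the 4 hairpin series (adjusted *p* of 0.0787 to 0.202) and the replicate block (adjusted *p* = 0.152).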

How the results depend on the processing

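Of the members' calls, that of *Pcgf6* over days held in all 17 settings, that of *Bmi1* in *Smarca4* knockdown in 19 of 20, *Cbx8* over days in 13 of 16, *Bmi1* over days in 13 of 17 and *Bmi1* between the knockdowns in 11 of 21. The cause of each loss was not tested. Between the knockdowns no member was called (0) after centring on the median gene, after quantile normalization, with the replicate block, or without day 4, day 6 or day 7 (0 each), and leaving out a series gave 0 to 1. In *Smarcc1* knockdown against Nons *Bmi1* was called (1 member) without day 5, without the smallest library and with the GC contrast as a covariate. In *Smarca4* knockdown against Nons 0 members were called without day 7, where *Smarca4* itself stood at -1.76 (adjusted *p* = 0.054, limma). Leaving out a series moved *Smarca4* from -1.99 to -1.59, the latter not passing (adjusted *p* = 0.0692). Over days the GC covariate gave 6 members, in a fit where the contrast did not overlap between days 4 and 7. *Cbx8* over days fell to 0.25 (adjusted *p* = 0.513) under quantile normalization, and *Bmi1* over days to -0.40 (adjusted *p* = 0.0578) with an additive model.

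Members that were not called changed sign in a few settings. In *Smarcc1* knockdown *Cbx8* was -0.054 under quantile normalization, and *Cbx6* ran from -0.54 to 0.13 without a series. In *Smarca4* knockdown *Cbx2* was -0.0046 under quantile normalization, -0.0094 without day 7 and -0.12 with the GC covariate, *Cbx6* 0.078 without day 4 and 0.00033 without day 6, *Rnf2* 0.034 without day 5 and 0.074 with the GC covariate, and *Pcgf2* -0.043 with the GC covariate. Without a series, these ran from -0.063 to 0.21 (*Cbx2*), -0.076 to 0.0091 (*Cbx6*) and -0.095 to 0.0063 (*Rnf2*). Between the knockdowns *Pcgf2* ran from -0.038 to 0.47 without a series. Over days *Rnf2* was 0.12 with the GC covariate, and without a series *Ring1* ran from -0.11 to 0.060 and *Cbx2* from -0.33 to 0.056.

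The series shared by days were entered as a replicate block with a correlation of 0.217. Deviations of the hairpins correlated between days at -0.206 to 0.823, over 0.1 in 6 of 12 pairs of days. The days of a series share a hairpin, but the fit reported took them as independent. Its *p*-values can therefore be too small where the days of a hairpin moved together. The block kept *Bmi1* in *Smarca4* knockdown (adjusted *p* = 0.0164), not between the knockdowns (adjusted *p* = 0.152). All genes called ranged from 400 to 1969 for *Smarcc1* knockdown (1412 as reported), 133 to 1140 for *Smarca4* knockdown (892), 43 to 1067 between the knockdowns (544), 5816 to 11050 over days (8575), and 0 to 175 (61) and 0 to 20 (11) for the courses. The planned quasi-likelihood count test was not run, as the values are log2 rpm. With 1 Nons library a day, the spread of Nons was not measured.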
